A study of Homo sapiens with 10 samples.

Results

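The 37 genes described here are NFE2L2, which encodes the transcription factor NRF2, its inhibitor KEAP1, and 35 antioxidant and detoxification genes widely described as NRF2 targets. They were taken by gene name from RNA sequencing tables of cell lines from esophageal squamous cell carcinoma (ESCC), and all 37 are listed in each of the 10 libraries. The tables hold 20501 named genes in the interferon experiment and 19580 in the knockdown experiment. In the interferon experiment, KYSE450, KYSE180 and KYSE30 each gave 1 library from cells kept for 72 h in interferon-beta (IFN-β), a type I interferon, at 1000 IU/ml, and 1 library from untreated cells, which received saline buffer. In the knockdown experiment, KYSE180 and KYSE30 each gave 1 library in which lentivirus had been used to deplete IRF1-AS, a non-coding transcript opposite the interferon regulatory factor gene IRF1, and 1 vector control library. All 3 are established human tumour lines, and no non-tumour cells are among the libraries used here.

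NRF2 is held in the cytoplasm by KEAP1, which presents it to a ubiquitin ligase for degradation. Oxidants and electrophiles modify cysteines of KEAP1, after which NRF2 accumulates, enters the nucleus with a small MAF partner and binds antioxidant response elements. Its targets make glutathione and thioredoxin, supply NADPH, conjugate or reduce reactive carbonyls, export the products and handle iron, and mutations of NFE2L2 or KEAP1 that raise NRF2 activity are known in squamous cancers of the esophagus.

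The core of the antioxidant response element, TGACNNNGC, was searched on both strands in the promoters that RefSeq gives (GRCh38.p14). Each promoter runs from 250 bases before to 50 bases after a listed transcript start. Such a start can lie inside the gene, as for EPHX1 (promoter chr1:225825104-225825403, gene chr1:225810092-225845563). A gene can have several promoters, as TXNRD1 does. A match was present in 10 of 27 members with a promoter sequence (37.0%) and in 4384 of 27305 genes overall (16.1%). Printed here are the windows, with 30 bases on each side of the match, of the 5 members with a match that were higher in KYSE180 than in KYSE30 in both experiments, and of GCLM, which has a match and did not pass that test in either. Each reads 5′ to 3′ on the strand of its gene, and capitals mark the matches, some of which lie on the opposite strand.
GPX2 (chr14:64942829-64942897, minus strand): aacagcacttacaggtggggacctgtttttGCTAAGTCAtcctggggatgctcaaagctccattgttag
CYP4F11 (chr19:15934985-15935053, minus strand): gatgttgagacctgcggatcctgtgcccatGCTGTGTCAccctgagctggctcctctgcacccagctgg
CBR1 (chr21:36069835-36069903, plus strand): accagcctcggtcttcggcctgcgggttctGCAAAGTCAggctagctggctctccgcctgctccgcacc
EPHX1 (chr1:225825246-225825314, plus strand): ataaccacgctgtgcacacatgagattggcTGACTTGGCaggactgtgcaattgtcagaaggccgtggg
KEAP1 (chr19:10502764-10502855, minus strand): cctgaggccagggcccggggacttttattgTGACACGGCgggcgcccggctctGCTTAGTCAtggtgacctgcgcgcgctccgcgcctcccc
GCLM (chr1:93909426-93909494, minus strand): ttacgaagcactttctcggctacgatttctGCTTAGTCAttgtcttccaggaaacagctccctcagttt

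KEAP1 carries 2 matches in this window, and GCLM and the second KEAP1 match share the same 9 letters. The other members with a match were ME1, PGD, PIR and TXNRD1. Of the 16 members higher in KYSE180 in both experiments, 13 had a promoter sequence and 5 a match, and of the other 21 members 14 had a promoter sequence and 5 a match. The AP-1 motif TGACTCA, which resembles the core, was present in 3 of 27 members (11.1%) and in 6.05% of all genes, and it overlaps the core match in ME1 and PIR. A match is a run of letters and not a measured binding site.

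The deposited values are FPKM, fragments scaled to gene length and library size, so levels of different genes are per length. The FPKM of named genes sum to 988427 to 993533 per library in the interferon experiment and to 391386 to 419107 in the knockdown experiment, so the interferon values may have been rescaled, and levels are compared within an experiment only. The values given are FPKM divided by a median-of-ratios factor of each library, called scaled FPKM. FPKM carry no read depth, so no counting interval can be given for a single library, and the number of libraries limits the precision. The marker lists fitted the labelled epithelial origin: all 4 epithelial markers reached 1 FPKM in every library, PTPRC and CD3E, which define leukocytes, were at most 0.0952 and 0.392 scaled FPKM, the 4 fibroblast markers summed to at most 5.30 scaled FPKM, and the 3 endothelial markers to at most 1.08. The 4 leukocyte markers summed to 0.764 to 15.1, most of it CD68, a lysosomal protein that is not confined to leukocytes. The 6 squamous keratinocyte markers all reached 1 FPKM in every library but were weaker in KYSE30, where they summed to 59.2 to 64.2 scaled FPKM in the interferon experiment, against 5428 under IFN-β and 9696 untreated in KYSE450 and 3401 and 5014 in KYSE180. In the knockdown experiment they summed to 7375 to 8420 in KYSE180, against 471.9 to 526.5 in KYSE30, and their part in the line differences was not tested. ISG15, an interferon-induced ubiquitin-like protein, rose after IFN-β by a log2 fold change of 5.61 ± 0.17 (SE, n = 3 lines, limma, adjusted p = 1.137e-05). C5orf56 (ENSG00000197536), the gene annotated for IRF1-AS, stood at 0.929 scaled FPKM after knockdown and 1.05 in the vector control in KYSE180, and at 3.03 after knockdown and 7.21 in the vector control in KYSE30. No strand setting is stated, so where this gene overlaps IRF1 their reads cannot be told apart. By C5orf56 the knockdown label rests mainly on KYSE30, where ISG15 also differed, at 344.6 after knockdown and 1127 in the vector control. Over both lines the log2 fold change after knockdown was −1.072 ± 0.335 for ISG15 and −1.324 ± 0.486 for IRF1. Neither passed the test (SE, n = 2 lines, limma, adjusted p = 0.73 and 0.746). As deposited, the IFN-β library of KYSE450 stood above its untreated library by a median log2 shift of 0.43 over all tested genes, which the scaling takes out.

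**Figure D1:**
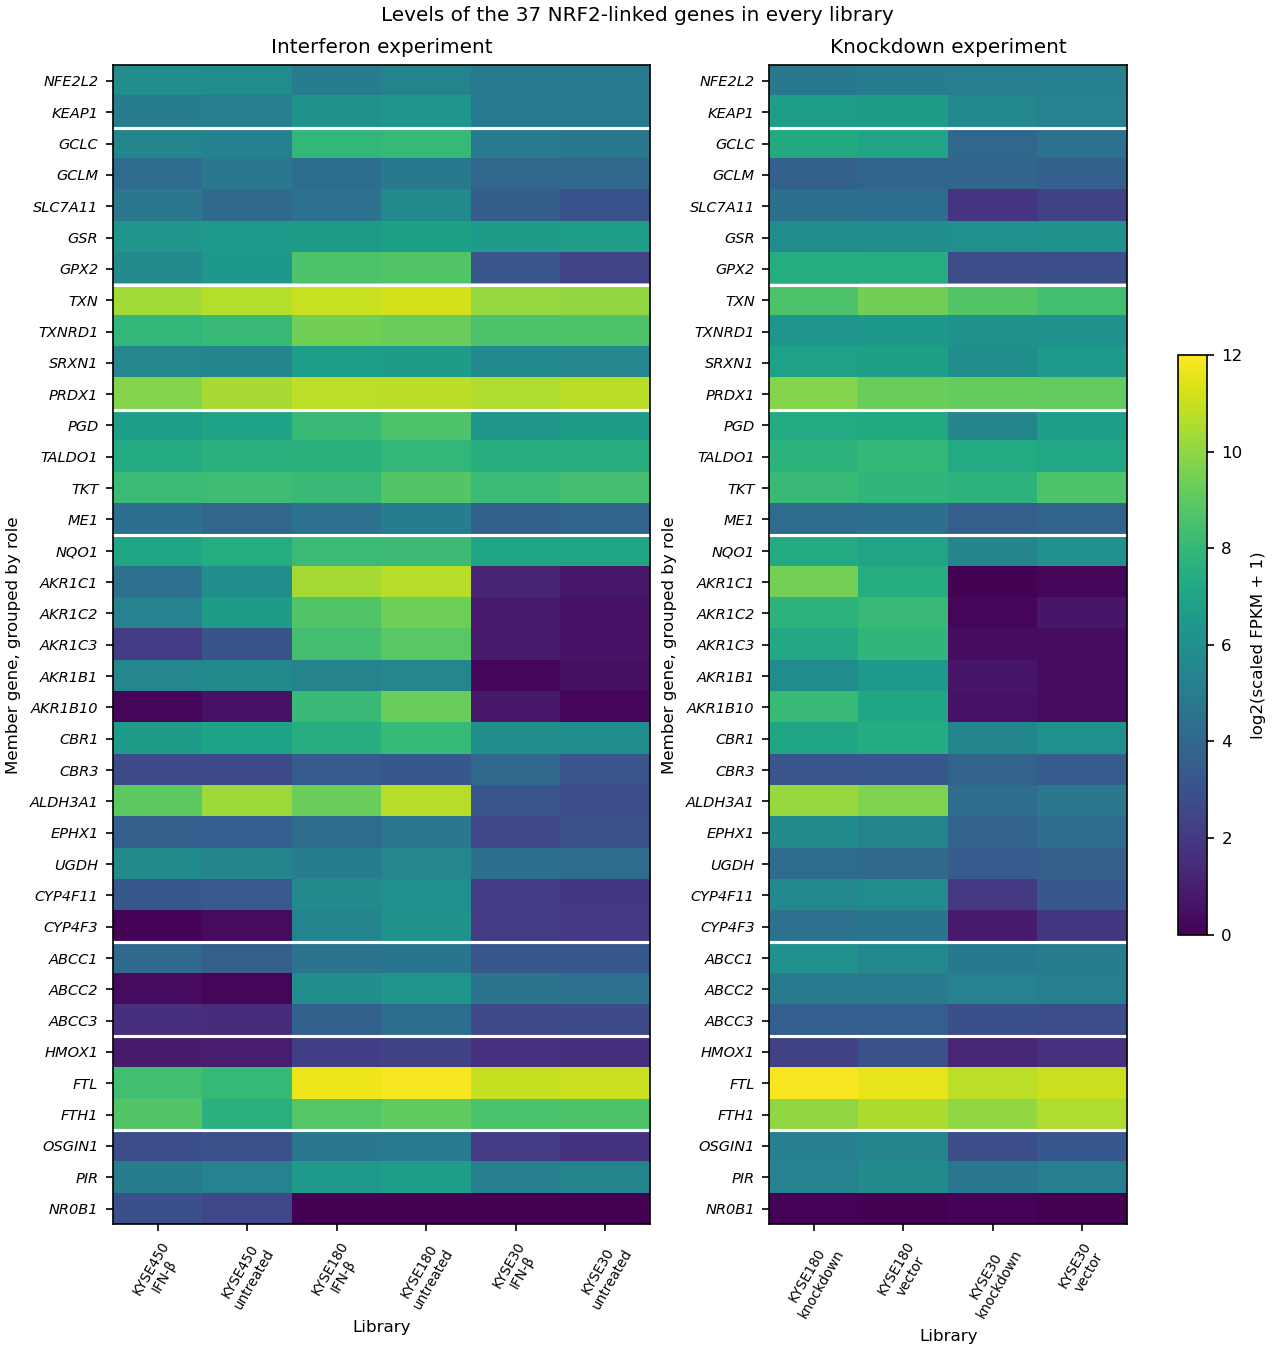
Heat map of log2(scaled FPKM + 1) of all 37 genes (rows, grouped by role) in the 6 libraries of the interferon experiment and the 4 of the knockdown experiment (columns). The aldo-keto reductases AKR1C1, AKR1C2, AKR1C3 and AKR1B10 are bright in KYSE180 and dark in KYSE30, while GSR, TALDO1 and TKT have a similar shade in all libraries.

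The first comparison was KYSE180 with KYSE30 in the interferon experiment. The 35 members that reached 1 FPKM in at least 3 of the 6 libraries were tested among 11622 genes, by limma with the treatment as a covariate. KYSE180 was higher for 27 of the 35 at an adjusted p under 0.05 and lower for none, where 25.4% of all genes were higher and 24.5% lower. The median log2 fold change was 1.30 for the members and 0.01 for all tested genes. AKR1C2, AKR1C3 and AKR1B1 entered the test without reaching 1 FPKM in KYSE30, so they had to differ. Among the 32 members at 1 FPKM in at least 1 library of both lines, 24 were higher, against 23% of such genes. A line has 2 libraries here, 1 under IFN-β and 1 untreated. The error comes from all 6 libraries, KYSE450 included, after the treatment term, and from a spread shared across genes. A p-value therefore does not measure the spread between replicate cultures of a line. In bulk RNA a lower level in every cell and fewer expressing cells cannot be told apart.

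In the knockdown experiment, a separate set of KYSE180 and KYSE30 libraries, 36 members reached 1 FPKM in at least 2 of the 4 libraries and were tested among 11907 genes. KYSE180 was higher for 17 members and lower for none, where 13.5% of all genes were higher and 12.6% lower. The median log2 fold change of the members was 1.02, against 0.01 for all genes. AKR1B1, AKR1B10, AKR1C1, AKR1C2 and AKR1C3 passed the filter through KYSE180 alone, and among the 31 members at 1 FPKM in both lines 12 were higher, against 10.1% of such genes. Of the 35 members tested in both experiments 16 were higher in both (45.7%), which is 59.3% of the 27 and 94.1% of the 17, where 968 of 10055 genes were (9.63%). These 16 include AKR1C1, AKR1C2, AKR1C3 and AKR1B1, which had to differ. Among the 31 members at 1 FPKM in both lines of both experiments, 12 were higher in both (38.7%), where 676 of 9390 such genes were (7.2%). With no filter on low values the knockdown-experiment calls of NQO1, EPHX1 and HMOX1 were lost (adjusted p = 0.0788, 0.0583 and 0.0615).

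**Figure D2:**
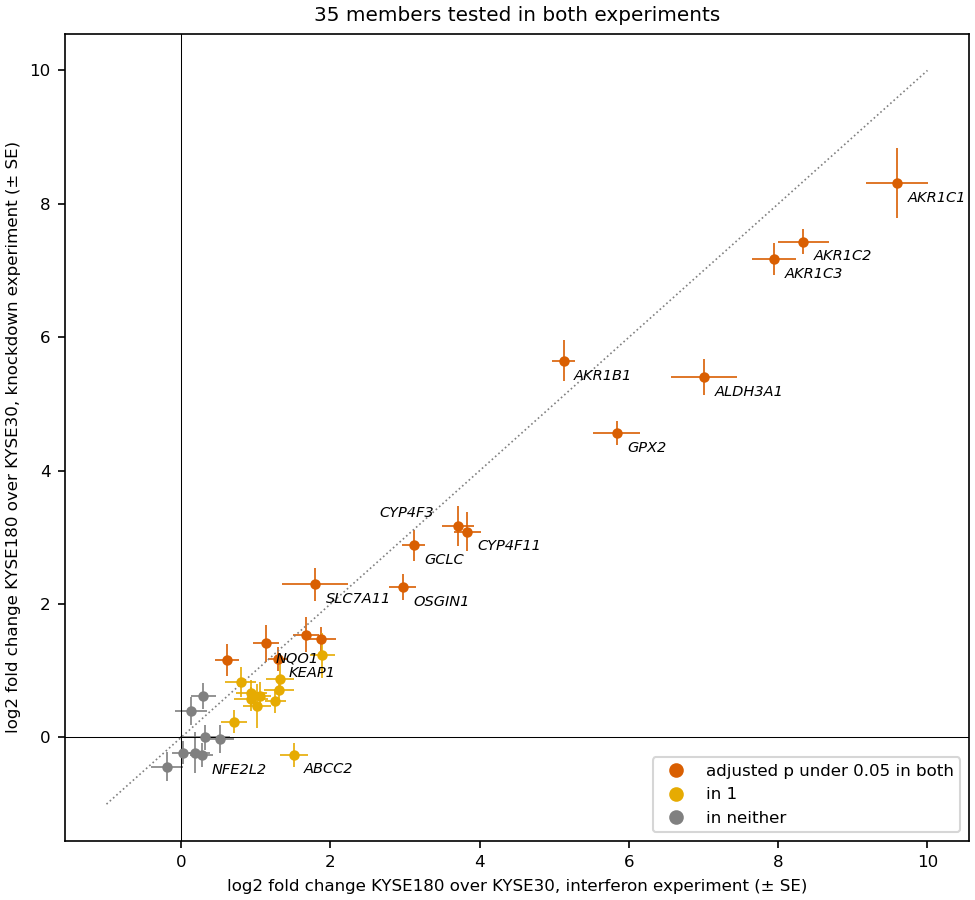
Log2 fold change of KYSE180 over KYSE30 in the interferon experiment (x axis) and in the knockdown experiment (y axis) for the 35 members tested in both, with bars of 1 SE and a dotted line of equality. Of these, 29 lie above 0 on both axes, and AKR1C1 lies farthest out, at 9.59 and 8.31. The share of all genes above 0 on both axes was not counted.

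Of the regulators, KEAP1 was higher in KYSE180 in both experiments and NFE2L2 did not pass the test. NFE2L2 (chr2:177227595-177392697, GRCh38) stood at 32.3 scaled FPKM in KYSE180 under IFN-β and 41.8 untreated, against 30.4 and 30 in KYSE30. With knockdown and vector it stood at 27.6 and 31.7 in KYSE180, against 33.9 and 37.5 in KYSE30. KYSE180 was therefore the higher line in the first experiment and the lower in the second, without overlap between lines, and neither difference passed the test (log2 fold change 0.27 ± 0.16 and −0.26 ± 0.18, SE, limma, adjusted p = 0.19 and 0.327). KEAP1 (chr19:10486120-10503741), whose product restrains NRF2, stood at 70.7 under IFN-β and 78.1 untreated in KYSE180, against 29.6 in both KYSE30 libraries, a log2 fold change of 1.30 ± 0.14 (SE, limma, adjusted p = 0.000358). In the other experiment it stood at 104 with knockdown and 95.8 with vector in KYSE180, against 48.3 and 39.1 in KYSE30, a log2 fold change of 1.18 ± 0.18 (SE, limma, adjusted p = 0.0126).

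In glutathione synthesis, GCLC was higher in KYSE180 in both experiments and GCLM passed in neither. GCLC, the catalytic subunit of glutamate-cysteine ligase, stood at 242 scaled FPKM in KYSE180 under IFN-β and 258 untreated, against 28.8 and 27.0 in KYSE30 (log2 fold change 3.12 ± 0.15, SE, limma, adjusted p = 1.65e-05). Its levels in the other experiment were 155 with knockdown and 126 with vector in KYSE180, against 15.6 and 21.0 in KYSE30 (2.88 ± 0.24, adjusted p = 0.00324). GCLM, the modifier subunit, did not pass the test in either experiment, with log2 fold changes of 0.52 ± 0.19 and −0.02 ± 0.21 (SE, limma, adjusted p = 0.053 and 0.963). In the interferon experiment GCLM was called higher on the values as deposited (adjusted p = 0.0434), with upper-quartile scaling (0.04) and without the IFN-β KYSE30 library (0.0379). SLC7A11, which imports cystine, was higher in KYSE180 by 1.80 ± 0.44 and by 2.29 ± 0.25 in the interferon and knockdown experiments (SE, limma, adjusted p = 0.0186 and 0.00561). The first of these calls was lost without the untreated KYSE30 (adjusted p = 0.165), the IFN-β KYSE30 (0.0598), the untreated KYSE450 (0.054) or the IFN-β KYSE450 (0.0517) library. GSR, which regenerates reduced glutathione, lay between 93.3 and 113 scaled FPKM in the interferon libraries of KYSE180 and KYSE30 and between 54.4 and 69.5 in the knockdown experiment, with fold changes of 0.02 and −0.23 that did not pass.

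GPX2, a glutathione peroxidase of epithelia whose promoter window is shown above, had the widest gap of the glutathione group. It stood at 395 scaled FPKM in KYSE180 under IFN-β and 427 untreated, against 8.40 and 4.52 in KYSE30. The knockdown experiment gave 169 with knockdown and 174 with vector in KYSE180, against 6.09 and 6.48 in KYSE30. The lines did not overlap in either experiment, and the log2 fold changes were 5.84 ± 0.32 and 4.57 ± 0.18 (SE, limma, adjusted p = 4.26e-05 and 0.000917).

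In the thioredoxin system, 3 of 4 members were higher in KYSE180 in the interferon experiment and none passed in the knockdown experiment. TXN, the thioredoxin itself, TXNRD1, which reduces it, and SRXN1, which repairs overoxidized peroxiredoxins, were higher by 1.02 ± 0.19, 0.71 ± 0.17 and 1.06 ± 0.14 (SE, limma, adjusted p = 0.00378, 0.0127 and 0.000953). Their fold changes in the knockdown experiment were 0.47, 0.23 and 0.62 and did not pass. The TXN call was lost without the untreated KYSE30 library (adjusted p = 0.115), and the TXNRD1 call without either KYSE30 library (0.148 and 0.186) or the IFN-β KYSE180 library (0.0641). The peroxidase PRDX1 did not pass in either experiment, with 0.13 and 0.40. Among the 4 genes that supply NADPH or act in the pentose phosphate pathway, PGD was higher in KYSE180 in the interferon experiment by 1.89 ± 0.17 and ME1, malic enzyme, by 0.94 ± 0.23 (adjusted p = 0.000176 and 0.0127), while TALDO1 and TKT did not pass. The ME1 call was lost without the IFN-β KYSE30 library (adjusted p = 0.0713) or the untreated KYSE180 library (0.0698). None of these 4 passed in the knockdown experiment, where PGD had 1.23 ± 0.34 (adjusted p = 0.0545, and 0.0496 with a minimum average of 5 FPKM).

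The aldo-keto reductases, which reduce carbonyls and ketosteroids, set the lines farthest apart. AKR1C1 (chr10:4963253-4983283) stood at 1327 scaled FPKM in KYSE180 under IFN-β and 1702 untreated, against 1.24 and 0.698 in KYSE30. With knockdown and vector it stood at 726 and 173 in KYSE180, against 0.0653 and 0.172 in KYSE30. The log2 fold change was 9.59 ± 0.41 in the interferon experiment (SE, limma, adjusted p = 3.79e-05) and 8.31 ± 0.53 in the knockdown experiment, where the gene passed the filter through KYSE180 alone and no p is given. AKR1C2, its neighbour on the opposite strand (chr10:4987400-5018031), stood at 433 under IFN-β and 652 untreated in KYSE180, against 0.809 and 0.497 in KYSE30, and at 214 with knockdown and 267 with vector in KYSE180, against 0.170 and 0.646 in KYSE30. AKR1C3 (chr10:5035354-5107686) stood at 348 under IFN-β and 484 untreated in KYSE180, against 0.851 and 0.497 in KYSE30, and at 151 with knockdown and 241 with vector in KYSE180, against 0.326 in both KYSE30 libraries. In no library of KYSE30 did AKR1C2 or AKR1C3 reach 1 scaled FPKM. The fold changes of AKR1C2 were 8.34 ± 0.34 and 7.43 ± 0.19, and those of AKR1C3 were 7.95 ± 0.30 and 7.18 ± 0.24, on the log2 scale (SE), and no p is given for them, since they passed the filters without reaching 1 FPKM in KYSE30. These genes are near-identical in part: 26.6% of the 50-base stretches of AKR1C1 transcripts and 47.0% of those of AKR1C2 also occur in the other gene (GENCODE 29), so the split of reads between them is uncertain.

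AKR1B10 and AKR1B1, which lie together on chromosome 7, followed different patterns across lines. AKR1B10 stood at 279 scaled FPKM in KYSE180 under IFN-β and 611 untreated, while KYSE450 had 0.111 and 0.485 and KYSE30 had 0.724 and 0.169, so it missed the filter of the interferon experiment. In the knockdown experiment it stood at 277 with knockdown and 134 with vector in KYSE180, against 0.486 and 0.318 in KYSE30 (log2 fold change 7.11 ± 0.27, SE), with no p given since the gene passed the filter through KYSE180 alone. It shares 11.6% of its 50-base stretches with AKR1B15. AKR1B1, aldose reductase, was under 1 scaled FPKM in KYSE30 alone. It stood at 46.2 under IFN-β and 50.4 untreated in KYSE450 and at 40.9 and 45.7 in KYSE180, against 0.128 and 0.423 in KYSE30. With knockdown and vector it stood at 56.5 and 90.4 in KYSE180, against 0.643 and 0.276 in KYSE30 (log2 fold change 5.65 ± 0.31, and 5.12 ± 0.15 in the interferon experiment). KYSE30 did not reach 1 FPKM in either experiment, so no p is given.

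ALDH3A1, an aldehyde dehydrogenase of squamous epithelia, stood at 613 scaled FPKM in KYSE180 under IFN-β and 1696 untreated, against 7.93 and 6.03 in KYSE30. Its levels with knockdown and vector were 1129 and 826 in KYSE180, against 18.3 and 25.8 in KYSE30. KYSE180 was higher in both experiments, by 7.01 ± 0.44 and 5.41 ± 0.27 on the log2 scale (SE, limma, adjusted p = 0.000145 and 0.00131). NQO1, a quinone reductase and a standard readout of NRF2, had a smaller gap. It stood at 287 under IFN-β and 303 untreated in KYSE180, against 134 and 133 in KYSE30, and at 162 with knockdown and 127 with vector in KYSE180, against 42.6 and 66.7 in KYSE30. The lines did not overlap, with log2 fold changes of 1.13 ± 0.18 and 1.41 ± 0.28 (SE, limma, adjusted p = 0.00184 and 0.0253).

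The fatty acid hydroxylases CYP4F11 and CYP4F3 were also higher in KYSE180 in both experiments. CYP4F11 stood at 48.6 scaled FPKM under IFN-β and 64.0 untreated in KYSE180, against 3.30 and 2.69 in KYSE30, and at 48.3 with knockdown and 56.9 with vector in KYSE180, against 3.08 and 8.70 in KYSE30. CYP4F3 stood at 41.0 and 70.5 in KYSE180, against 3.20 and 3.16 in KYSE30, under IFN-β and untreated, and at 21.7 and 24.2 in KYSE180, against 0.810 and 2.89 in KYSE30, with knockdown and vector. The log2 fold changes were 3.83 ± 0.18 and 3.09 ± 0.29 for CYP4F11 and 3.71 ± 0.21 and 3.17 ± 0.30 for CYP4F3 (SE, limma, adjusted p = 1.6e-05, 0.00446, 2.98e-05 and 0.00437). CBR1, a carbonyl reductase, and EPHX1, the microsomal epoxide hydrolase, were higher in both experiments as well, CBR1 by 1.88 and 1.48 and EPHX1 by 1.68 and 1.54.

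CBR3, the close relative of CBR1 on chromosome 21, had the opposite sign. It stood at 10.1 scaled FPKM under IFN-β and 8.82 untreated in KYSE180, against 14.9 and 7.94 in KYSE30, and at 7.996 with knockdown and 8.49 with vector in KYSE180, against 13.2 and 10.1 in KYSE30. Its fold changes of −0.19 ± 0.22 and −0.44 ± 0.22 did not pass (SE, limma, adjusted p = 0.493 and 0.203). UGDH, which makes UDP-glucuronate for conjugation, was higher in KYSE180 in the interferon experiment by 0.94 ± 0.21 (adjusted p = 0.00869; 0.0636 without the untreated KYSE30 library) and did not pass in the other.

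Of the exporters of conjugates, ABCC1, ABCC2 and ABCC3 were higher in KYSE180 in the interferon experiment, by 1.33 ± 0.19, 1.51 ± 0.19 and 1.31 ± 0.20 (SE, limma, adjusted p = 0.00124, 0.000706 and 0.00187), and none passed in the knockdown experiment. There ABCC1 was called higher on the values as deposited (adjusted p = 0.0477), with a minimum average of 5 FPKM (0.0485) and without the treatment term (0.0466), and ABCC3 without the treatment term (0.0428). ABCC2 had opposite signs in the experiments. It stood at 57.1 scaled FPKM under IFN-β and 76.5 untreated in KYSE180, against 23.7 and 21.5 in KYSE30, but at 31.0 with knockdown and 30.8 with vector in KYSE180, against 39.5 and 34.8 in KYSE30 (−0.26 ± 0.18, adjusted p = 0.341).

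Among iron-handling genes, FTL, the ferritin light chain, stood at 3268 scaled FPKM under IFN-β and 3786 untreated in KYSE180, against 1952 and 2099 in KYSE30. With knockdown and vector it stood at 3825 and 3125 in KYSE180, against 1786 and 2117 in KYSE30. The gap passed in the interferon experiment (0.80 ± 0.20, adjusted p = 0.0147) and had an adjusted p of 0.052 in the other (0.83), where it was called on the values as deposited (0.0415), with upper-quartile scaling (0.0498), with a minimum average of 5 FPKM (0.0489) and without the treatment term (0.0298). The interferon call was lost without the untreated KYSE30 (adjusted p = 0.116), the IFN-β KYSE30 (0.198) or the untreated KYSE180 library (0.0885). HMOX1, heme oxygenase, was low throughout, between 0.813 and 4.06 scaled FPKM in the interferon experiment and between 1.45 and 6.86 in the knockdown experiment, and higher in KYSE180 by 0.61 ± 0.17 and 1.16 ± 0.24 (SE, limma, adjusted p = 0.0182 and 0.0264). Its interferon call was lost without the untreated KYSE30 (adjusted p = 0.182), the IFN-β KYSE30 (0.0608) or the untreated KYSE180 library (0.0678). OSGIN1, a stress-induced growth inhibitor, was higher by 2.97 ± 0.18 and 2.25 ± 0.19, and PIR, an iron-binding nuclear protein, by 1.26 ± 0.14 in the interferon experiment.

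**Figure D3:**
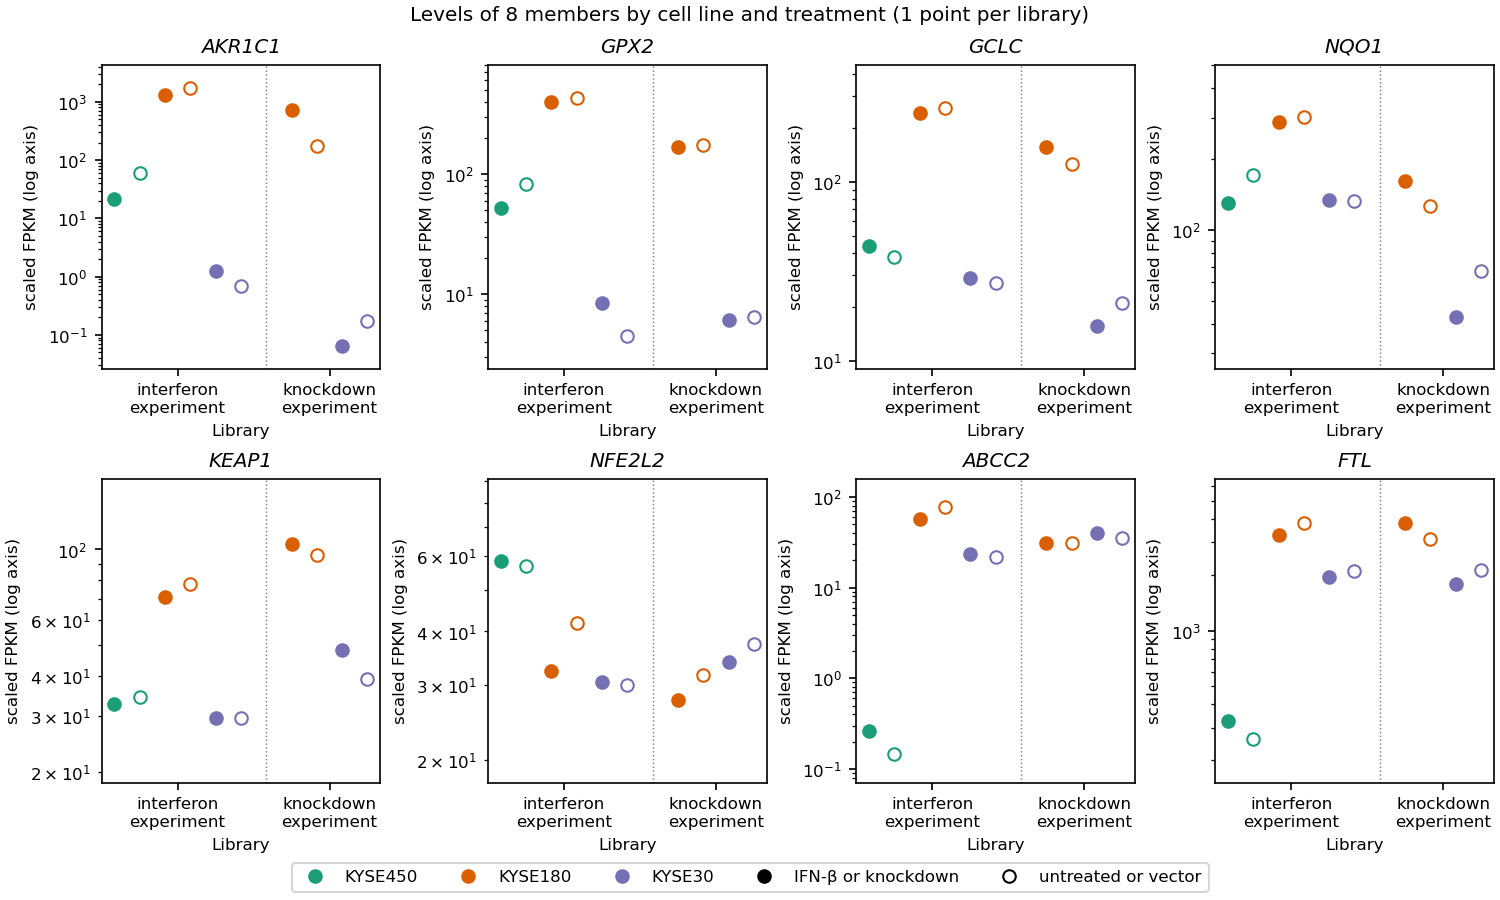
Scaled FPKM (log axes) of 8 members, 1 point per library, coloured by line, filled for IFN-β or knockdown and open for untreated or vector control, with a dotted line between the experiments. KYSE180 lies above the other lines for AKR1C1, GPX2, GCLC, NQO1 and KEAP1, NFE2L2 is highest in KYSE450, and KYSE450 is lowest for ABCC2 and FTL.

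KYSE450 was measured in the interferon experiment alone. Against KYSE30, it was higher for 14 of 35 members and lower for 7, where 24.3% of all genes were higher and 26% lower. Among the 29 members at 1 FPKM in both lines, 11 were higher and 4 lower, against 22.2% and 25.2% of such genes. ALDH3A1 led, at 498 scaled FPKM under IFN-β and 1208 untreated in KYSE450, against 7.93 and 6.03 in KYSE30 (log2 fold change 6.62 ± 0.44, SE, limma, adjusted p = 0.000183). AKR1C1 stood at 21.5 and 60.5 in KYSE450, against 1.24 and 0.698 in KYSE30, and was higher by 4.25 ± 0.41. AKR1C2 stood at 39.5 and 97.0 in KYSE450, against 0.809 and 0.497 in KYSE30, and was higher by 5.26 ± 0.34. The lines did not overlap for these genes, nor for GPX2, which stood at 52.4 and 83.4 in KYSE450, against 8.40 and 4.52 in KYSE30 (3.22 ± 0.32). AKR1B1 (5.28 ± 0.15), AKR1C3, CYP4F11, UGDH, OSGIN1, NFE2L2, CBR1, EPHX1, ABCC1 and GCLC were the other members that were higher. AKR1B1, AKR1C2 and AKR1C3 did not reach 1 FPKM in KYSE30, and their values are a description. For GCLC the levels were 43.9 and 37.9 in KYSE450, against 28.8 and 27.0 in KYSE30, and its adjusted p of 0.0231 became 0.222 without the untreated and 0.197 without the IFN-β KYSE30 library, 0.135 without the IFN-β KYSE450 library and 0.052 on the values as deposited. The ABCC1 call was lost without the untreated KYSE30 (adjusted p = 0.0829), the IFN-β KYSE30 (0.251) or the IFN-β KYSE450 library (0.285), with no filter (0.068) and on the values as deposited (0.0815). The CBR1 call was lost without the untreated KYSE30 (0.206) or the untreated KYSE450 library (0.054), and the EPHX1 call without the IFN-β KYSE30 (0.0807) or the IFN-β KYSE450 library (0.0807).

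The members lower in KYSE450 than in KYSE30 were ABCC2, FTL, CYP4F3, ABCC3, CBR3, HMOX1 and TXNRD1. ABCC2, which exports conjugates across the apical membrane, stood at 0.265 scaled FPKM under IFN-β and 0.146 untreated in KYSE450, against 23.7 and 21.5 in KYSE30 (−4.29 ± 0.19). FTL stood at 327 and 260.0 in KYSE450, against 1952 and 2099 in KYSE30, and was lower (−2.79 ± 0.20, adjusted p = 7.3e-05). CYP4F3 was lower too, at 0.0856 and 0.291 in KYSE450, against 3.20 and 3.16 in KYSE30 (−1.82 ± 0.21). ABCC2, CYP4F3 and HMOX1 did not reach 1 FPKM in KYSE450, and their values are a description. Without the IFN-β KYSE30 library 4 members remained lower, with CBR3, HMOX1 and TXNRD1 no longer called. These 3 calls were also lost without the IFN-β KYSE450 library, and the TXNRD1 call without the untreated KYSE30 library.

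Against KYSE180, KYSE450 was lower for 24 of 35 members and higher for 1, where 27.9% of all genes were lower and 25.3% higher. Among the 32 members at 1 FPKM in both lines, 21 were lower, against 26.6% of such genes, and 1 was higher, against 24.9%. The median log2 fold change was −1.02 for the members and −0.02 for all genes. The member higher in KYSE450 was NFE2L2, at 58.3 scaled FPKM under IFN-β and 56.8 untreated in KYSE450, against 32.3 and 41.8 in KYSE180 (0.63 ± 0.16, SE, limma, adjusted p = 0.0132). This call was lost without the IFN-β KYSE180 (adjusted p = 0.0601) or the IFN-β KYSE450 library (0.0936), and on the values as deposited (0.125). Against KYSE30 NFE2L2 was also higher in KYSE450, by 0.91 ± 0.16 (adjusted p = 0.00313).

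KEAP1 stood at 32.8 under IFN-β and 34.4 untreated in KYSE450 and was lower there than in KYSE180 (−1.12 ± 0.14), while its difference from KYSE30 did not pass (0.17). NQO1 stood at 130 and 171 in KYSE450 and was lower than in KYSE180 (−0.98 ± 0.18, adjusted p = 0.00321), and its difference from KYSE30 did not pass (0.15). The tested members most reduced in KYSE450 relative to KYSE180 were AKR1C3, at 3.23 and 7.59 scaled FPKM (−6.09 ± 0.30), ABCC2 (−5.80 ± 0.19), CYP4F3 (−5.53 ± 0.21), AKR1C1 (−5.34 ± 0.41), FTL (−3.59 ± 0.20) and AKR1C2 (−3.08). ABCC2 and CYP4F3 did not reach 1 FPKM in KYSE450, so their values are a description. AKR1B10, which was not tested, stood at 0.111 and 0.485 in KYSE450, against 279 and 611 in KYSE180. GPX2 and GCLC were lower by −2.62 and −2.59 ± 0.15. CYP4F11, at 8.81 and 9.24 scaled FPKM, was lower as well. The calls of TXN, PRDX1 and CBR3 were lost without the IFN-β KYSE450 library (adjusted p = 0.119, 0.164 and 0.216) and in other settings, that of ABCC1 without the untreated KYSE450 (0.118) or the untreated KYSE180 library (0.0696), and that of EPHX1 without the untreated KYSE450 library (0.0534). ALDH3A1 and AKR1B1 did not pass, with −0.39 ± 0.44 and 0.15, nor did UGDH, at 53.0 and 43.2 scaled FPKM in KYSE450, against 31.9 and 46.4 in KYSE180 (0.31 ± 0.21, adjusted p = 0.249). NR0B1, a nuclear receptor corepressor that missed both filters, stood at 6.51 under IFN-β and 4.96 untreated in KYSE450, was at or under 0.0793 in the other 8 libraries, and is listed at 0 in 3 of them.

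In the interferon experiment the order of the lines varied by gene. NQO1, GCLC, GPX2, AKR1C1, AKR1C2, AKR1C3 and CYP4F11 had KYSE180 highest. For GCLC, GPX2, AKR1C1 and CYP4F11 all 3 pairs of lines differed in the test, with KYSE30 lowest, whereas for NQO1 KYSE450 and KYSE30 did not differ in it. AKR1C2 and AKR1C3 had the same order by value. They did not reach 1 FPKM in KYSE30, so their gaps from that line are a description. ALDH3A1 separated KYSE30 from the other lines, which did not differ from each other in the test. AKR1B1 did not differ between KYSE450 and KYSE180 either, and its gap from KYSE30, where it did not reach 1 FPKM, is a description. FTL, ABCC2 and CYP4F3 had KYSE450 lowest and KYSE180 highest. All 3 pairs differed in the test for FTL. ABCC2 and CYP4F3 differed between KYSE180 and KYSE30, but did not reach 1 FPKM in KYSE450, so their gaps from that line are a description. In the knockdown experiment ABCC2 did not keep its order of KYSE180 and KYSE30.

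The treatment comparisons asked whether IFN-β or loss of IRF1-AS moved these genes, with lines as replicates. After IFN-β no member was called among 35 tested (limma, adjusted p under 0.05), where 0.576% of all genes were higher and 0.0172% lower. At an unadjusted p under 0.05 there was 1 member, PGD, and 1281 of 11622 genes, and without limma's trend and robust options no member was called either. PGD, the NADPH-producing phosphogluconate dehydrogenase, had a log2 fold change of −0.37 ± 0.14 (SE, n = 3 lines, limma, adjusted p = 0.417). By value 28 of 35 members were below 0, with a median log2 fold change of −0.15 for the members and −0.01 for all genes. The share of all genes below 0 was not counted for this fit. Within lines, 88.6% of members were lower in KYSE180, 62.9% in KYSE450 and 40% in KYSE30, against 49.4%, 50.3% and 51% of all genes. The regulators had −0.10 ± 0.13 for NFE2L2 and −0.07 ± 0.11 for KEAP1, and NQO1 had −0.15 ± 0.14 (SE, n = 3 lines, limma, adjusted p = 0.78, 0.834 and 0.704).

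ALDH3A1 had the most negative value, with levels of 498, 613 and 7.93 scaled FPKM under IFN-β in KYSE450, KYSE180 and KYSE30, against 1208, 1696 and 6.03 in the untreated libraries. Its log2 ratios were −1.28 in KYSE450, −1.47 in KYSE180 and 0.35 in KYSE30, and the test over lines gave −0.80 ± 0.36 (SE, n = 3 lines, limma, adjusted p = 0.486). Without KYSE30 it was called lower (−1.37, adjusted p = 0.0461), as it was on the values as deposited (−0.65, adjusted p = 0.035). AKR1C2 followed at −0.53 ± 0.28 (adjusted p = 0.531), with ratios of −1.28, −0.59 and 0.27 in KYSE450, KYSE180 and KYSE30. The largest positive values were those of CBR3, 0.35 ± 0.18, and FTH1, 0.29 ± 0.27 (adjusted p = 0.507 and 0.701). FTH1, the ferritin heavy chain, stood at 440, 456 and 394 under IFN-β in KYSE450, KYSE180 and KYSE30, against 197, 541 and 401 in the untreated libraries, so its positive value came from KYSE450 alone.

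Within single lines, with 1 library in each arm and no test, the responses differed in sign. In KYSE180 31 of 35 members were lower under IFN-β by value (88.6%, against 49.4% of all genes), with a median log2 ratio of −0.28. ALDH3A1 and SLC7A11 were below the 2-fold mark in KYSE180 (−1.47 and −1.18), as were 2.22% of all genes, and AKR1B10, which was not tested, had −1.13. In KYSE450 22 of 35 were lower by value (62.9%, against 50.3%). The AKR1C genes AKR1C1, AKR1C2 and AKR1C3 and ALDH3A1 were 2-fold lower there, at −1.45, −1.28, −1.02 and −1.28, where 0.903% of all genes were, and FTH1 was 2-fold higher, at 1.15, where 1.88% were. These KYSE450 ratios depend on the scaling, which took out a median log2 shift of 0.43 toward higher values under IFN-β. Ratios within a line were not recomputed on the values as deposited. In KYSE30 14 of 35 were lower by value (40%, against 51%), the median ratio was 0.02, and no member reached a 2-fold change in either direction, where 1.23% of genes were 2-fold higher and 0.0688% 2-fold lower. The 6 squamous markers summed to less under IFN-β in the same lines, at 3401 scaled FPKM, against 5014 untreated, in KYSE180 and at 5428, against 9696 untreated, in KYSE450, but not in KYSE30, at 64.2, against 59.2 untreated, and their part in these values was not tested. The difference between lines in these responses could not be tested.

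**Figure D4:**
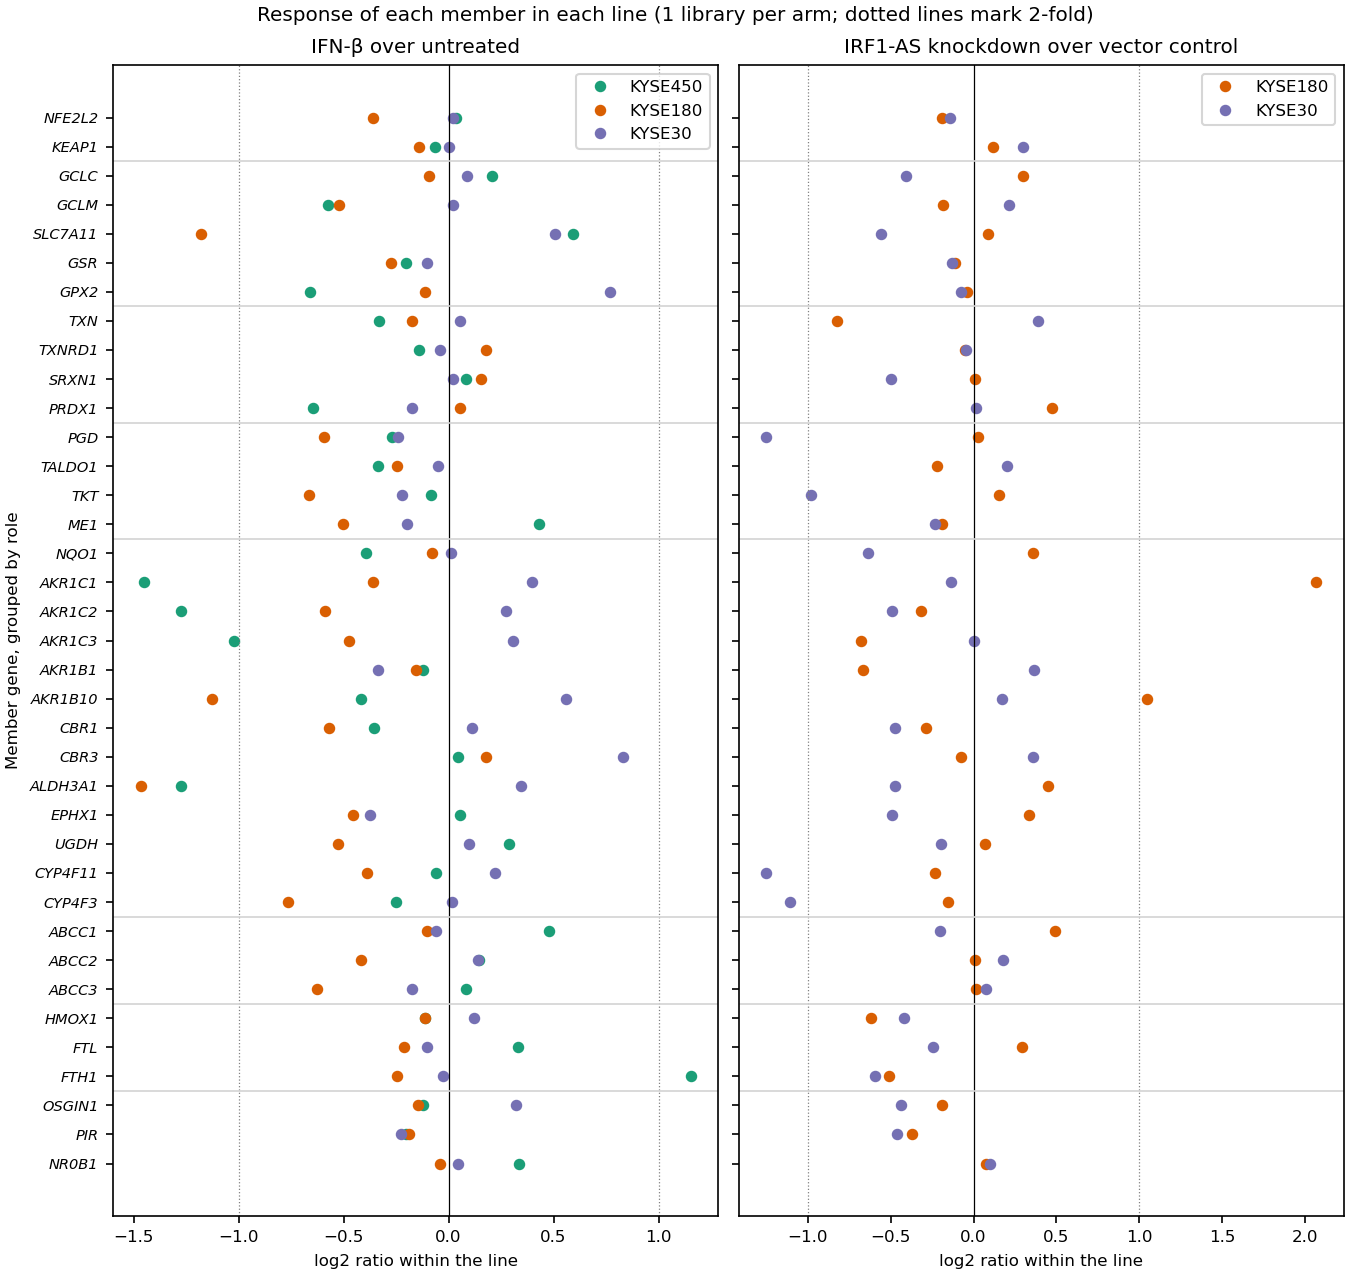
Log2 ratio of each member within each line, for IFN-β over untreated (left) and IRF1-AS knockdown over vector control (right), 1 point per line, with dotted lines at a 2-fold change. ALDH3A1 is below −1 in KYSE450 and KYSE180 and above 0 in KYSE30 on the left, and AKR1C1 reaches 2.07 in KYSE180 on the right.

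After IRF1-AS knockdown no member was called among 36 tested, and neither was any of 11907 genes (0% in each direction, limma, with or without its trend and robust options). At an unadjusted p under 0.05 there were 795 genes and 1 member, FTH1. It stood at 1045 and 1015 scaled FPKM after knockdown in KYSE180 and KYSE30, against 1491 and 1534 in the vector controls, lower in both lines and without overlap (−0.55 ± 0.18, SE, n = 2 lines, limma, adjusted p = 0.73). The most positive members were AKR1C1 at 0.96 ± 0.53 and AKR1B10 at 0.61 ± 0.27 (adjusted p = 0.794 and 0.784), and the most negative CYP4F11 at −0.74 ± 0.29 and CYP4F3 at −0.63 ± 0.30 (adjusted p = 0.746 and 0.791). NFE2L2, KEAP1 and NQO1 had −0.17 ± 0.18, 0.21 and −0.14 ± 0.28.

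In KYSE180 the knockdown library had more AKR1C1 than its vector control, 726 against 173 scaled FPKM, a log2 ratio of 2.07, while AKR1C2 and AKR1C3 lay lower, at 214 against 267 and 151 against 241. AKR1B10 had 1.05. These were the only 2 tested members beyond a 2-fold difference in KYSE180, where 1.26% of all genes were 2-fold higher and 2.38% lower. In KYSE30 26 of 36 members were lower by value (72.2%, against 53.5% of all genes), and PGD, CYP4F11 and CYP4F3 were 2-fold lower, at −1.25, −1.25 and −1.10, where 3.77% of all genes were and 1.22% were 2-fold higher. PGD stood at 160 after knockdown and 157 with vector in KYSE180, against 43.2 and 104 in KYSE30. In KYSE180 19 of 36 members were lower by value (52.8%, against 51%). Each ratio within a line rests on a single pair of libraries.

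A further list of 42 genes of the pathway, which holds MAF partners, other regulators, glutathione transferases and other conjugating enzymes, was counted in the same fits. For this list no count was restricted to genes at 1 FPKM in both lines. Its line counts and fold changes may therefore include genes that passed the filter without reaching 1 FPKM in a line, and so had to differ. KYSE180 was higher than KYSE30 for 19 of 39 tested and lower for 9 in the interferon experiment (48.7% and 23.1%, against 25.4% and 24.5% of all genes), and higher for 13 and lower for 5 of 40 in the knockdown experiment (32.5% and 12.5%, against 13.5% and 12.6%). PTGR1, a reductase of prostaglandins and alkenals, was higher by 7.31 ± 0.15 and 6.42, and ADH7, an alcohol dehydrogenase of the upper digestive tract, by 7.31 ± 0.27 and 5.93. The glutathione transferases GSTM3, GSTM4 and GSTA4 were higher by 5.91, 4.59 and 5.04 in the interferon experiment and by 4.07, 3.80 and 3.53 in the knockdown experiment. MGST1, a microsomal glutathione transferase, was lower in KYSE180 in both, by −2.88 and −2.12. The genes named are examples, and the rest of the list is given here by counts alone. Levels of the named genes in their lower line are not given here, so their fold changes are a description. KYSE450 was higher than KYSE30 for 9 and lower for 11 of the 39 (23.1% and 28.2%, against 24.3% and 26% of all genes), and higher than KYSE180 for 6 and lower for 19 (15.4% and 48.7%, against 25.3% and 27.9%). None of the list was called after IFN-β (0 of 39) or knockdown (0 of 40), where 11 and 5 of them had an unadjusted p under 0.05 (28.2% and 12.5%, against 11% and 6.68% of all genes).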

How the data were processed

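RNA sequencing gave 10 libraries of 3 ESCC lines, and per the file headers the authors deposited FPKM per gene. TopHat, HTSeq and hg38 appear in the submitters' processing notes. Tool versions, annotation, strand setting and read depth are all not given in the sources used here. Rows of 1 name were summed, unnamed rows were left out, and the 28032 long non-coding transcripts of the interferon tables entered an alternative only. Each experiment has its own normalization and was fitted apart.

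FPKM were divided by median-of-ratios factors (0.825 to 1.169 in the interferon experiment, from 9936 genes, and 0.952 to 1.025 in the knockdown experiment, from 10313). Named genes at 1 FPKM in at least 3 of 6 or 2 of 4 libraries were tested on log2(scaled FPKM + 1), so folds of low genes are understated. Tests used limma 3.58.1 (trend and robust options, statmod 1.5.0, R 4.3.3), with line and treatment as terms and Benjamini-Hochberg adjustment over all tested genes at 0.05. The fits leave 2 and 1 residual degrees of freedom, so much of each error comes from a spread shared across genes. The tests were also run on simulated data with independent noise of the same size in every gene. The noise of these libraries need not be like that, and no statement here rests on the simulation.

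Libraries were paired by cell line, per the labels. Their deviations from the group means correlated at 0.906 in KYSE450, 0.878 in KYSE180 and 0.935 in KYSE30, and at 0.84 in the knockdown experiment. These deviations keep the differences between lines, so libraries of the same line resemble each other in them. With only KYSE180 and KYSE30 in the knockdown experiment, both lines must give the same value. The correlations therefore cannot test a pairing beyond the line label. Members given in full are NFE2L2, KEAP1, NQO1, up to 12 with the largest called line differences, and the 2 largest in each direction of each comparison. The members and lists were chosen with earlier results of these data known. Counts restricted to genes at 1 FPKM in both lines were added after the data were seen. Positions are from GENCODE 29 and promoters from RefSeq. Besides the AKR1C and AKR1B10 genes, members that share over 5% of their 50-base transcript stretches with other genes are SRXN1 (84.7%), FTH1 (25.0%), FTL (18.3%), NFE2L2 (14.4%), OSGIN1 (13.8%), CYP4F3 (9.29%), GCLC (7.42%) and PGD (5.81%), and their levels are uncertain to that extent.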

Additional observations from a re-analysis of the deposited data

Results flagged for a closer look

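The difference of NFE2L2 between KYSE180 and KYSE30 had opposite signs in the 2 experiments, with a log2 fold change of 0.274 in the interferon experiment and −0.261 in the knockdown experiment. In the first, every KYSE180 library lay above every KYSE30 library, and in the second every one lay below. ABCC2 had the same pattern, with 1.51 in the interferon experiment and −0.257 in the knockdown experiment. The difference between the experiments was not tested, since they were normalized separately.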

How the results depend on the processing

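Over the alternatives 2353 values of members were recomputed. No call reversed its direction, 63 were lost and 29 were gained, and 2261 values kept their side of the threshold. After IFN-β, 69 genes were called. This count was 220 with values as deposited, 29 with no filter, 13 with no replicate block and 53 to 128 without 1 line. Members called lower were 1 with values as deposited and 0 to 1 without 1 line (ALDH3A1 in both cases), and members called higher were 0 without any line. For comparisons between lines, no replicate block means that the treatment term was dropped. Members called higher were then 27 for KYSE180 against KYSE30 in the interferon experiment and 20, against 17, in the knockdown experiment, which adds ABCC1, ABCC3 and FTL. KYSE450 had 14 higher and 7 lower against KYSE30, and 1 higher and 21 lower, against 24, compared with KYSE180, with TXN, PRDX1 and CBR3 lost.

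With 1 library left out, KYSE180 against KYSE30 in the interferon experiment had 3415 to 5773 genes called, against 5808, and 21 to 26 members higher. The count was 3588 without the untreated and 3415 without the IFN-β KYSE30 library. KYSE450 against KYSE30 had 3403 to 6683 genes, against 5844, with 11 to 15 members higher and 4 to 8 lower, and 3679 and 3403 genes without the same libraries. KYSE450 against KYSE180 had 4519 to 5819 genes, against 6191, with 0 to 2 members higher and 21 to 24 lower. Members higher there were 0 with values as deposited and 2 with no filter, which adds NR0B1. In the knockdown experiment, the line comparison had 1726 genes called with no filter, against 3101. Leaving out a library of that experiment leaves no residual degrees of freedom, so no test was run. FPKM give no depth, so precision at low levels, as of the AKR1C genes in KYSE30, is unknown.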

Other observations

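Some regulators outside the 37 genes also differed between KYSE180 and KYSE30 in both experiments. NFE2L1, a relative of NRF2 that controls proteasome genes, was higher in KYSE180 by a log2 fold change of 1.49 ± 0.15 in the interferon experiment and 0.84 ± 0.18 in the knockdown experiment (SE, limma, adjusted p = 0.000272 and 0.029). NFE2L3, another relative, was lower by −1.31 ± 0.20 and −1.23 ± 0.29 (adjusted p = 0.0019 and 0.039). MAFK, a small MAF partner of NRF2, passed in opposite directions. It stood at 15.9 scaled FPKM under IFN-β and 13.3 untreated in KYSE180, against 11.3 and 9.76 in KYSE30 (0.44 ± 0.15, adjusted p = 0.0466). With knockdown and vector it stood at 18.2 and 21.4 in KYSE180, against 38.9 and 41.2 in KYSE30 (−0.98 ± 0.18, adjusted p = 0.0207). These genes belong to the further pathway list and were singled out after their values were seen. Levels of NFE2L1 and NFE2L3 are not given here, so the limit stated for that list holds for them too.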
